A study of Mus musculus with 6 samples.

Results

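The loci of the Myc family, Myc (c-Myc), Mycn (N-Myc), Mycl (L-Myc) and of their shared dimerization partner Max, were examined for accessible chromatin in mouse embryonic stem cells (mESCs). The 4 genes were chosen by name from 21000 protein-coding genes with a curated RefSeq transcription start site (TSS) on GRCm38. A peak was assigned to a locus when it overlapped the gene span extended by 100 kb on each side, which gave 46 of the 41014 peaks in the list. A promoter peak was one within 1 kb of the TSS. The data came from ATAC-seq, in which the Tn5 transposase inserts adapters into open chromatin, so that sequenced fragments pile up over accessible regions. The series holds 6 samples in 3 groups. The list analysed here is that named for the untreated cells, which have 2 replicates, and how these were combined was not given. They are V6.5 cells, a mouse ES cell line. Per the labels it was grown in serum and leukaemia inhibiting factor (LIF) on irradiated mouse embryonic fibroblasts. The paper's culture methods for mESCs add the inhibitors CHIR99021 (of GSK3) and PD0325901 (of MEK) to serum and LIF and name no feeder cells, so the medium of these samples is given differently by the sources. The treatment text that the samples share speaks of doxycycline on degron cells, while the untreated samples carry the label untreated. The paper also uses the word untreated for ZBTB21-degron cells in which degradation was not induced. Whether the cells analysed here carry the degron tag was therefore not settled. The samples labelled ZBTB21-degron at 0 h and 6 h were not analysed here. The list gives the position of each peak and a score, with no strand, read depth or value per replicate, so every value in it stands without a replicate error and no test was possible. The lowest score in the list, 540, is the scaled score that the IDR software (irreproducible discovery rate) writes for a value of 0.05. Read in this way, from the values alone, a score ranks how well the 2 replicates agreed on a peak, and a high score is not a measure of stronger accessibility.

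MYC, MYCN and MYCL are basic helix-loop-helix leucine zipper transcription factors that bind E-box DNA as heterodimers with MAX. MAX also pairs with itself and with the MXD proteins, MNT and MGA, which repress genes at the same sites. In mESCs Myc and Mycn are known to sustain proliferation and self-renewal, and Myc is a well-known target of LIF signalling.

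Of the 4 genes, Myc was the one with listed peaks at its promoter. Myc held 2 promoter peaks, whereas Mycn, Mycl and Max held 0. One of 4 members, Myc, thus had a promoter peak, beside 28.5% of all protein-coding genes, a share close to it. The distance from the TSS to the nearest peak edge was 0 bp for Myc, 2.91 kb for Max, 9.14 kb for Mycl and 14.0 kb for Mycn, and the median over all genes was 9226.5 bp. Max therefore lay closer to a peak than the median gene, Mycl stood near the median and Mycn stood beyond it. A gene absent from the list at its promoter cannot be called closed, because the list holds only regions that passed the peak threshold.

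The core promoters of Mycn, Mycl and Max, the members without a promoter peak, are shown. The RefSeq promoter set used held no entry for Myc. RefSeq sequences on GRCm38.p6 (250 bases before the TSS to 50 bases from it) were matched for 3 of the 4 members, and each is printed 5′ to 3′ on the strand of its gene. Capitals mark the letters of 5 motifs sought on both strands, the TATA box (TATAAA), the CCAAT box (CCAAT), the GC box (GGGCGG), the E2F letters (TTTGGCGC, TTTCGCGC, TTTCCCGC or TTTGCCGC) and the E-box (CACGTG).
Mycn promoter, chr12:12941787-12942086, minus strand: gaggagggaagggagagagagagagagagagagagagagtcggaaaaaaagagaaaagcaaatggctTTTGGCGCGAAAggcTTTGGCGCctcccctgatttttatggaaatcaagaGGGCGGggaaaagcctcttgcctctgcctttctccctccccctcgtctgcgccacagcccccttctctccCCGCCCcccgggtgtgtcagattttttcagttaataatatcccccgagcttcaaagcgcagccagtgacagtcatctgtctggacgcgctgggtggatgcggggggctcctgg
Mycl promoter, chr4:122995681-122995980, plus strand: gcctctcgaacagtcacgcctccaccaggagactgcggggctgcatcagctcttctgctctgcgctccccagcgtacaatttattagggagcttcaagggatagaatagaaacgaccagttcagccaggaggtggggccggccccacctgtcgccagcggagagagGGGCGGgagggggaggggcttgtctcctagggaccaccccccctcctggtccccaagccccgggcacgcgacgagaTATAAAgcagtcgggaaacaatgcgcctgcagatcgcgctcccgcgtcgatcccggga
Max promoter, chr12:76962199-76962498, minus strand: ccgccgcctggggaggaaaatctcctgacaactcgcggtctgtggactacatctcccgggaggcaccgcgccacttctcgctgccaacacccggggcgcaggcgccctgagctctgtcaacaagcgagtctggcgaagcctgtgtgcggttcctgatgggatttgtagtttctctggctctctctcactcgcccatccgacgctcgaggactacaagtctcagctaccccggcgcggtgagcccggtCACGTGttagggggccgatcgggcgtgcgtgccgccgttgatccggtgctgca

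The Mycn promoter held 3 matches to the E2F letters, of which the first and the second overlap and lie on opposite strands. These letters occurred in 2.26% of the 32851 promoters of the RefSeq table. It also held 2 GC boxes, a motif present in 35.7% of promoters. The Mycl promoter held the letters TATAAA once, from position -8, which is closer to the TSS than a TATA box usually acts, and 13.6% of promoters held them anywhere in the window. It also held 1 GC box. In the Max promoter the only match was 1 E-box, present in 7.15% of promoters, whose letters span the TSS (the first base lies at position -3). The promoters were rich in G and C, with 56.7% for Mycn, 64% for Mycl and 64.7% for Max, beside a median of 52.7% over the table. CpG dinucleotides numbered 14 in Mycn, 22 in Mycl and 30 in Max, and the ratio of observed to expected CpG was 0.584, 0.716 and 0.957, respectively. These matches describe letters in the windows only, and whether a factor binds there was not tested.

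The 300 bases at the centre of 5 peaks are shown next, which are the nearest peak to the TSS and the peak of highest score for the 3 genes without a promoter peak (for Mycn 1 peak is both). They are printed on the plus strand, and capitals mark the E-box and GC box as above, the octamer of POU factors (ATGCAAAT), the ESRRB letters (TCAAGGTCA) and the AP-1 letters (TGANTCA).
Mycn peak 6, chr12:12927239-12927538: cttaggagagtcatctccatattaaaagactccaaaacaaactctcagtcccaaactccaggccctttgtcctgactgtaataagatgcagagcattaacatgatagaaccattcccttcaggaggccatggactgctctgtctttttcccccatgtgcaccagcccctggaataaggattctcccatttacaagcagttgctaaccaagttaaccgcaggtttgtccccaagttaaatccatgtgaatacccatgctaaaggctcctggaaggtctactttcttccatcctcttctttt
Mycl peak 7, chr4:123005254-123005553: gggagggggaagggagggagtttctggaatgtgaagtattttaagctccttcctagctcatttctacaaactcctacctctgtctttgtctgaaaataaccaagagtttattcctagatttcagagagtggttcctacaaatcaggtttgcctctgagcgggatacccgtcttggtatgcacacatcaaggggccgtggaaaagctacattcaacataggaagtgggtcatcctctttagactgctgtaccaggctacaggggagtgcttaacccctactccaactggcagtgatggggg
Mycl peak 4, chr4:122955311-122955610: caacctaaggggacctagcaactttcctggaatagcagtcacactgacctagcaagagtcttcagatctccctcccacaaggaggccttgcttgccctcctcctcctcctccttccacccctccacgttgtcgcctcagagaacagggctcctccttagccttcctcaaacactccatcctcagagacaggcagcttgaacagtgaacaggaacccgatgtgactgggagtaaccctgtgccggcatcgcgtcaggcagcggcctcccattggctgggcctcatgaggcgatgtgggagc
Max peak 9, chr12:76965252-76965551: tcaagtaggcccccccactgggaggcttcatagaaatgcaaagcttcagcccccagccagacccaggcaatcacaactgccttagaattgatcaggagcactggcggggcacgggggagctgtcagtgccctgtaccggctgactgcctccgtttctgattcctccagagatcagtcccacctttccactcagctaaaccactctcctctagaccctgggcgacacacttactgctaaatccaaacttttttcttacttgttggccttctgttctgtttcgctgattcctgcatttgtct
Max peak 1, chr12:76837488-76837787: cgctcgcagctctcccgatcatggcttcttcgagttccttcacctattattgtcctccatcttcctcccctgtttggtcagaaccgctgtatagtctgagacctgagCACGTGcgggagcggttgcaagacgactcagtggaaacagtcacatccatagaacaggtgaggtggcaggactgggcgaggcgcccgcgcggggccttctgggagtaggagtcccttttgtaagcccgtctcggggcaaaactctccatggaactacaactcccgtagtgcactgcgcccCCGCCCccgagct

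Of these 5 centres, Max peak 1 alone held any of the letters, 1 E-box and 1 GC box. Over the centres of the 35 peaks at Mycn, Mycl and Max, 2 held an E-box (Max peaks 1 and 12), compared with 5.56% of the 41000 listed peaks on chromosomes. The peaks at Myc were not part of these counts. The AP-1 letters were in 3 centres (Mycn peak 8 and Max peaks 3 and 10), beside 11.3% of the listed peaks. The GC box was in 7 centres, beside 22.3%. The octamer and the ESRRB letters were in 0 of the 35, and they were rare in the list too, at 2.85% and 1.27%.

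Myc encodes c-Myc and lies on chromosome 15 from 61985341 to 61990361 on the plus strand. Its window held 11 peaks in 205.0 kb. The TSS lay inside peak 5 (chr15:61984891-61985794), which was 904 bp wide with a score of 757, and the annotated feature at its midpoint was the untranslated part of the first Myc exon. This was the peak of the window richest in G and C (60.6%), and its CpG ratio of 0.807 exceeded that of the other 45 peaks in the 4 windows. The other promoter peak, peak 4, was 492 bp wide, scored 697 and ended 609 bp upstream of the TSS.

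Upstream of these, peak 3 (355 bp, score 740) ended 1.77 kb and peak 2 (330 bp, score 654) 6.18 kb from the TSS. Peaks 2 to 5 thus formed a group of 4 within 6.96 kb (chr15:61978835-61985794) that held 2081 bp of peak sequence. With peak 6 (294 bp, score 641), 7.92 kb downstream, 5 peaks lay within 10 kb of the Myc TSS, a distance chosen after the values were seen. The counts within 10 kb were 0 for Mycn, 1 for Mycl and 1 for Max. The median gene had 1 such peak, and 99.5% of genes had fewer than Myc.

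Farther out, the Myc window held peak 1 (457 bp, score 622) 57.2 kb upstream, then a stretch of 50.7 kb with no listed peak. Downstream it held peak 7 (477 bp, score 723) at 25.3 kb and peak 8 (431 bp, score 735) at 27.3 kb. The last 3 peaks lay in introns of Pvt1, the long noncoding RNA gene next to Myc. Among them, peak 10 (chr15:62078765-62079929), 93.4 kb from the TSS, was both the widest peak of the window (1165 bp) and the one of highest score (785). Its neighbours, peak 9 (403 bp) and peak 11 (632 bp), scored 633 and 634. Pvt1 itself, whose TSS lies 52.6 kb downstream of that of Myc, held no promoter peak, and its nearest peak was 14.3 kb away. The Myc window held the TSS of 0 other protein-coding genes.

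Mycn, the family member named for its amplification in neuroblastoma, lies on chromosome 12 from 12936093 to 12941836 on the minus strand. It was the sparsest of the 4 windows, with 9 peaks in 205.7 kb, and none overlapped the gene. The nearest peak on either side was at 14.0 kb downstream and 44.9 kb upstream, so that a stretch of 58.8 kb around the gene was without a listed peak. The downstream peak, peak 6, was 968 bp wide and scored 849, above 94.8% of the list, and lay 8.22 kb beyond the 3′ end of Mycn. It was the peak of highest score in the window.

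Peak 5 followed at 31.6 kb (762 bp, score 835), 104 bp from the TSS of the long noncoding RNA gene Gm40271. The other 4 downstream peaks lay 38.9, 55.6, 70.1 and 101 kb away, with scores of 662, 678, 766 and 561. On the upstream side were peak 7, the widest of the window at 1175 bp with a score of 733, peak 8 (768 bp, score 737) and peak 9 (511 bp, score 694). The latter pair lay 60.1 and 67.6 kb from the TSS. Repeats covered 61.2% of peak 8 and 59.0% of peak 4, compared with a median of 10.9% over the list. The Mycn window also held the TSS of 0 other protein-coding genes, and the median score of its peaks, 733, was the highest of the 4 windows.

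Mycl encodes L-Myc and lies on chromosome 4 from 122995588 to 123002490 on the plus strand, with its curated TSS at 122995931. Its 12 peaks in 206.9 kb were divided evenly, with 6 upstream and 6 downstream. Peak 7, the nearest (667 bp, score 688), was 9.14 kb downstream of the TSS and 2.58 kb beyond the gene, and the nearest upstream peak (peak 6, 594 bp, score 608) was at 11.99 kb. The peak of highest score, peak 4 (842 bp, score 818), lay 40.1 kb upstream in an intron of Mfsd2a, which encodes a lysophosphatidylcholine transporter. Mfsd2a had no promoter peak, and its nearest peak was 5.31 kb away.

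The one promoter peak in the Mycl window belonged to Trit1, a tRNA modification enzyme gene whose TSS lies 20.7 kb downstream of that of Mycl. This peak (peak 9, 483 bp, score 755) had the highest GC content of the 46 peaks (62.7%). The widest of the 46 peaks, peak 12 at 1443 bp, lay 96.7 kb downstream of Mycl, and 99.1% of the list was narrower, although its score of 705 was close to the list median of 696. The lowest score of the 46, 547, belonged to peak 2, 93.6 kb upstream. The remaining 6 peaks of the window scored from 562 to 757.

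Max, the partner on which all of the family depend for E-box binding, lies on chromosome 12 from 76937269 to 76962323 on the minus strand. It had the densest window, with 14 peaks in 225.1 kb. Peak 9 (495 bp, score 714) lay 2.91 kb upstream of the TSS and was the nearest. The nearest downstream peak, peak 8 (356 bp, score 678), lay at 10.3 kb in a Max intron, as did peak 7 (631 bp, score 612) at 22.3 kb. These were the 2 peaks inside the body of Max.

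The high scores of the Max window lay in the neighbouring gene Fntb, which encodes the beta subunit of farnesyltransferase and holds 6 of the 14 peaks. Peak 1 at the Fntb TSS, 725 bp wide, scored 875 and was the highest of the 46 peaks, with a CpG ratio of 0.740. Peak 5 in an Fntb intron scored 872 and was the widest of the window at 996 bp. The other 4 Fntb peaks scored 730, 813, 707 and 807. The 8 remaining peaks, in Max or upstream of it, scored from 562 to 714, a range that meets the Fntb scores between 707 and 714. A score was read as a rank of replicate agreement only, and these few peaks are a description. Fntb lies on the opposite strand beyond the 3′ end of Max, and which promoter these peaks serve was not tested.

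**Figure D1:**
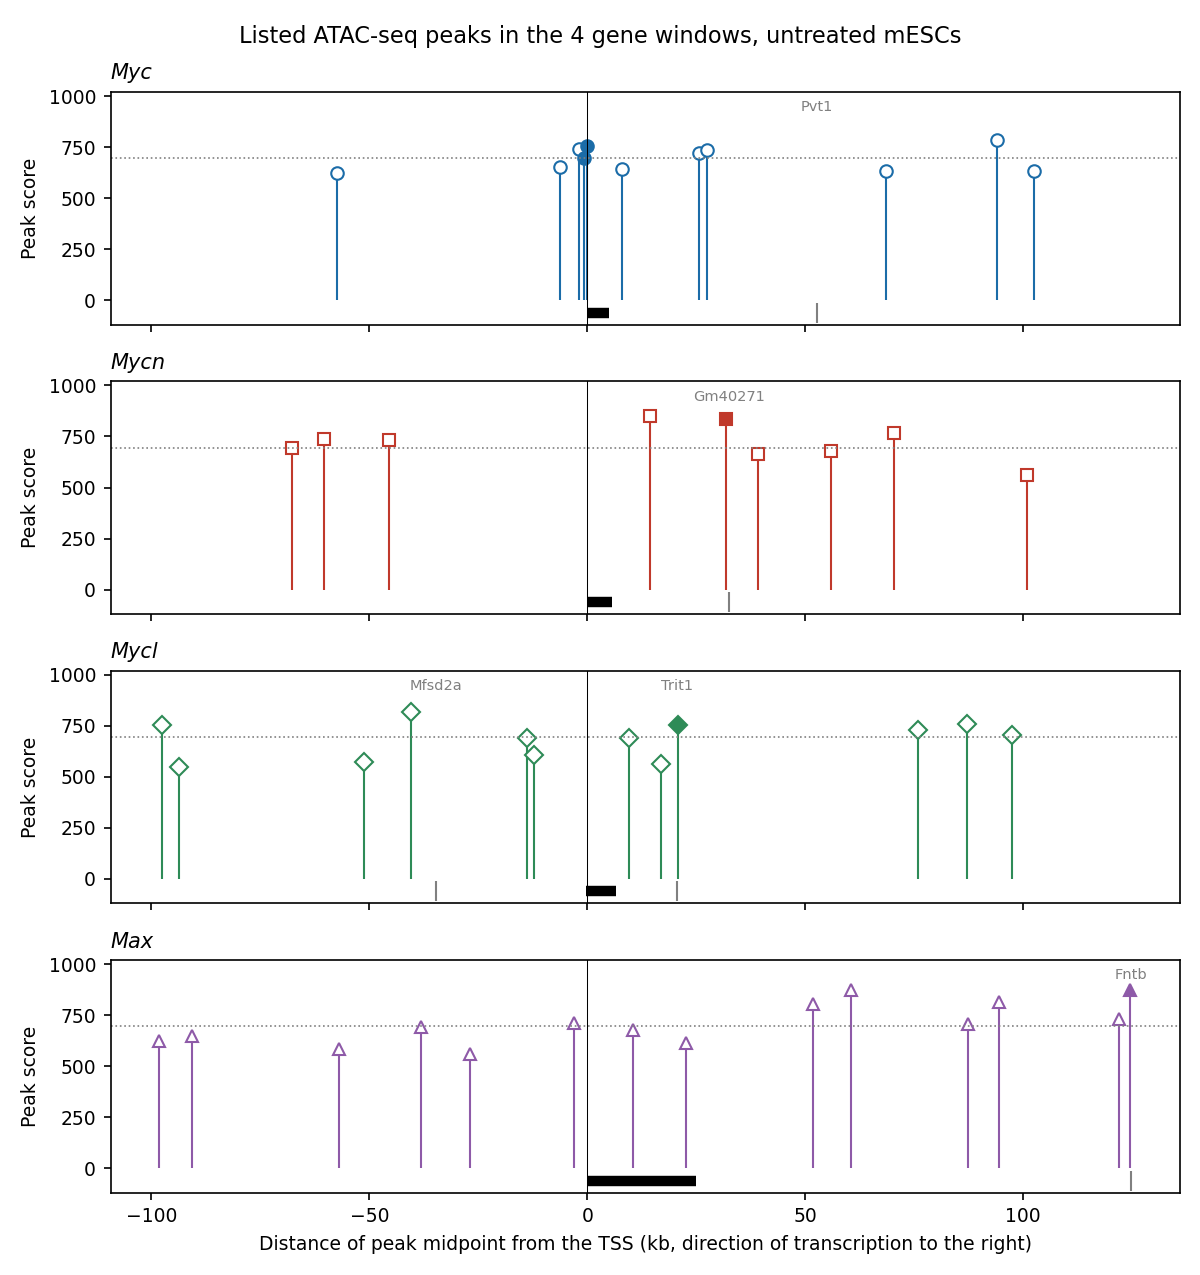
Peaks of the 4 windows by distance of the midpoint from the TSS (x axis, kb) and score (y axis, no unit). Filled symbols lie within 1 kb of a TSS of any gene, black bars are the gene bodies, grey ticks the TSSs of neighbours, and the dotted line is the list median of 696. Myc alone has filled symbols at 0 kb.

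In the map of the peaks by distance, 5 filled symbols mark the peaks within 1 kb of any TSS. They are Myc peaks 4 and 5 and the peaks at Gm40271, Trit1 and Fntb. Over the list 15.6% of peaks were within 1 kb of a TSS of any gene. The count of 5 of 46 is a small number beside that share and comes from windows chosen by name. The other 41 lay farther away. By annotation, 31 peaks lay outside genes (67.4%, beside 49.5% of the list), 12 in introns (26.1%, beside 40.6%), 2 in coding exons and 1 in an untranslated region.

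Scaled to length, the 4 windows held more peaks than the median gene. The density was 5.37 peaks per 100 kb at Myc, 4.37 at Mycn, 5.80 at Mycl and 6.22 at Max, compared with a median of 2.73 over the 21000 genes and a 75th percentile of 4.59. The windows of 82.9%, 72.5%, 86.4% and 89.3% of genes were less dense, respectively. All 4 stood above the median, and Mycn alone stood below the 75th percentile. Peaks covered 2.90% of the Myc window, 3.07% of that of Mycn, 3.47% of that of Mycl and 3.75% of that of Max.

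**Figure D2:**
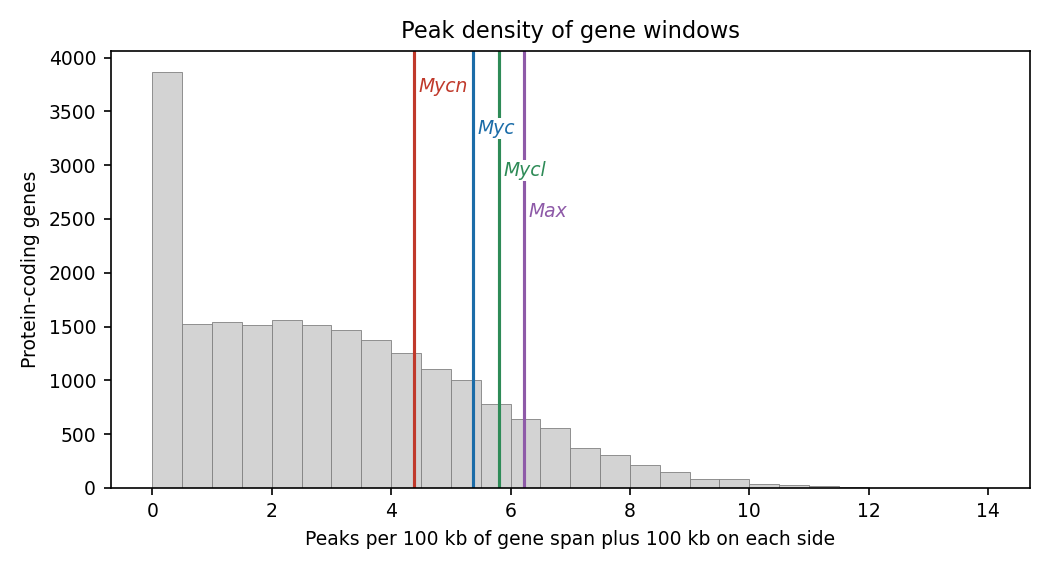
Peaks per 100 kb (x axis) in the windows of 21000 protein-coding genes (y axis, number of genes; steps of 0.5), with coloured lines for the 4 members. The lines stand between 4.37 for Mycn and 6.22 for Max, all to the right of the median of 2.73.

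The peaks were spaced differently. The median gap between neighbouring peaks was 7.49 kb at Myc, 10.1 kb at Mycl, 13.2 kb at Max and 15.1 kb at Mycn. The smallest gap was 158 bp, between the pair of Myc promoter peaks, followed by 1.06 kb at Mycl, 2.12 kb at Max and 6.61 kb at Mycn. Myc had the tightest group of peaks and, at 50.7 kb, a largest gap close to the 54.7 kb of Mycl and the 58.8 kb of Mycn, while the largest gap of Max was 33.3 kb.

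The form of the 46 peaks was close to that of the list. Their median width was 530.5 bp (294 to 1443 bp), beside 547 bp in the list, and their median score was 701 (547 to 875), beside 696. Above the list median score stood 24 of the 46 (52.2%, beside 49.8% of the list). By window, these were 6 of 11 peaks at Myc, 5 of 9 at Mycn, 6 of 12 at Mycl and 7 of 14 at Max. At or over 1000 bp there were 3, the widest peaks of Myc, Mycn and Mycl, and 6.21% of the list reached this width. A score of at least 800 was reached by 7 peaks, beside 14.5% of the list. They were 4 peaks in Fntb, Mycn peaks 5 and 6 and Mycl peak 4, so that the window of Myc held 0.

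**Figure D3:**
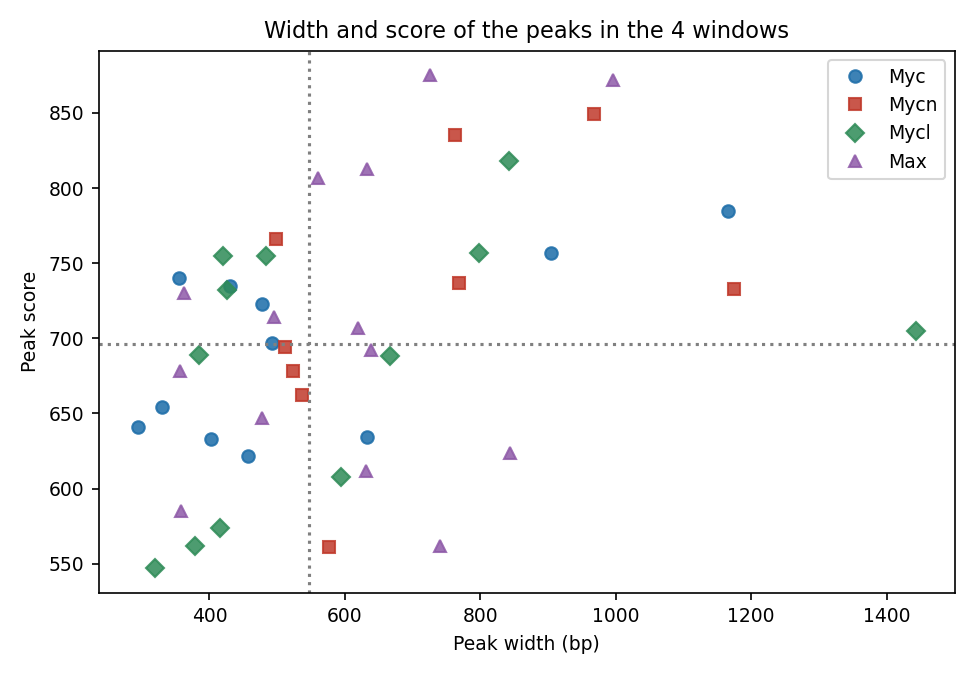
Width (x axis, bp) and score (y axis, no unit) of the 46 peaks, with the medians of the list (547 bp and 696) as dotted lines. The Myc peaks reach 785, while Mycn, Mycl and Max each have a peak above 800.

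The median width was 457 bp at Myc, 454.5 bp at Mycl, 577 bp at Mycn and 625.5 bp at Max, and the ranges overlapped. Median scores were 697 at Myc and Mycl, 699.5 at Max and 733 at Mycn, with overlapping ranges (622 to 785 at Myc and 561 to 849 at Mycn). The median GC content was 51.2% over the 46 peaks and 52.1% over the list. The median CpG ratio was 0.238 and 0.248, and the median repeat share 12.1% and 10.9%, respectively. CpG ratios over 0.7 were found at 3 peaks, those at the TSSs of Myc, Trit1 and Fntb.

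ZBTB21 is the zinc finger protein that the study depleted, and the peaks were compared by position with its binding regions in mESCs and with 2 classes of long chromatin loops. Of the 46 peaks, 0 overlapped one of the 1827 ZBTB21 regions, beside 1.98% of the list. None of the 4 windows contained a ZBTB21 region (0 of 4), while 31.8% of genes had one in theirs. Measured from the edge of the window, the nearest ZBTB21 region was 1.48 Mb away at Mycl, 2.87 Mb at Max, 3.00 Mb at Myc and 4.31 Mb at Mycn.

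The loops comprised 500 named responsive and 500 named less responsive. The names rest on whether a loop contained ZBTB21 regions together with reduced cohesin peaks and on the size of both signals at its ATAC-seq peaks, not on a change of the loop itself. The loop counts are therefore not independent of the ZBTB21 counts above. Here 0 of the 46 peaks lay inside a loop of either class, beside 22% of the list, and 0 of the 4 windows overlapped one, beside 29.1% of genes. The nearest responsive loop was 1.24 Mb from the window of Max, 4.31 Mb from that of Mycn, 5.096 Mb from that of Mycl and 12.6 Mb from that of Myc, and the nearest less-responsive loop was 0.988 Mb from Max, 1.66 Mb from Mycn, 2.61 Mb from Myc and 12.02 Mb from Mycl. Loops outside these classes were not analysed here. With 4 windows, counts of 0 are small numbers beside shares of this size.

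Genes that act with MYC were read in the same way. The 9 partner genes encode the other dimerization proteins of the network, and 6 of them had a promoter peak, beside 28.5% of genes. Among the MAX-binding repressors, Mxd4 had a peak of score 922, Mxi1 of 797, Mxd3 of 791 (1197 bp wide) and Mxd1 of 550, while Mga, which encodes a large MAX-binding repressor, had one of 692 whose edge was 965 bp from a TSS. Mnt had none within 1 kb (16.9 kb to the nearest).

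In the related branch, where MLX pairs with glucose-responsive factors, Mlxipl (ChREBP) had a peak of score 787, whereas Mlx (4.39 kb to the nearest) and Mlxip (MondoA, 27.2 kb) had none. The TSSs of Mxi1, Mxd4, Mlxip and Mlxipl lay inside responsive loops, while 15.6% of all genes had a TSS there. A promoter peak over a ZBTB21 region was found at 0 of the 9, beside 2.92% of genes. The partners were 6 of 9 and the members 1 of 4, numbers too few for more than a description.

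Of 15 genes for cofactors and turnover of MYC, 6 had a promoter peak (40%, beside 28.5% of genes). Those were Aurka, which encodes a kinase that stabilizes MYCN (score 815), Fbxw7, the ubiquitin ligase subunit that targets MYC for degradation (691), and the chromatin regulators Ruvbl2 (791), Kat2a (790), Bptf (768) and Kat5 (706). The median distance to the nearest peak in this list was 4.28 kb, beside 9226.5 bp over all genes. With 15 genes these values are a description.

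Of 23 known MYC target genes 12 had a promoter peak (52.2%, beside 28.5% of genes), and 11 had none. The 11 were the nucleolar genes Ncl, Nop56 and Bop1, the polyamine synthesis genes Odc1 and Srm, the metabolic genes Ldha, Shmt2 and Ppat, the mitochondrial chaperonin genes Hspd1 and Hspe1, and Eif4e, which encodes the cap-binding protein. Their nearest peaks lay from 2.16 kb (Shmt2) to 51.4 kb (Eif4e) away, and the median over all genes was 9226.5 bp. ZBTB21 regions overlapped promoter peaks at 4 of the 23 targets, Nop58, Eif4a1, Nolc1 and Pcna, and at 0 of the 15 cofactor genes. Over all 21000 genes the share was 2.92% (614 genes), and 5991 genes had a promoter peak. A gene without a promoter peak cannot count here, so the 4 targets are also to be read beside the 12 with one. A TSS inside a responsive loop was found for 4 of 23 targets and 3 of 15 cofactor genes, beside 15.6% of genes. With lists of this size these counts are descriptions.

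**Figure D4:**
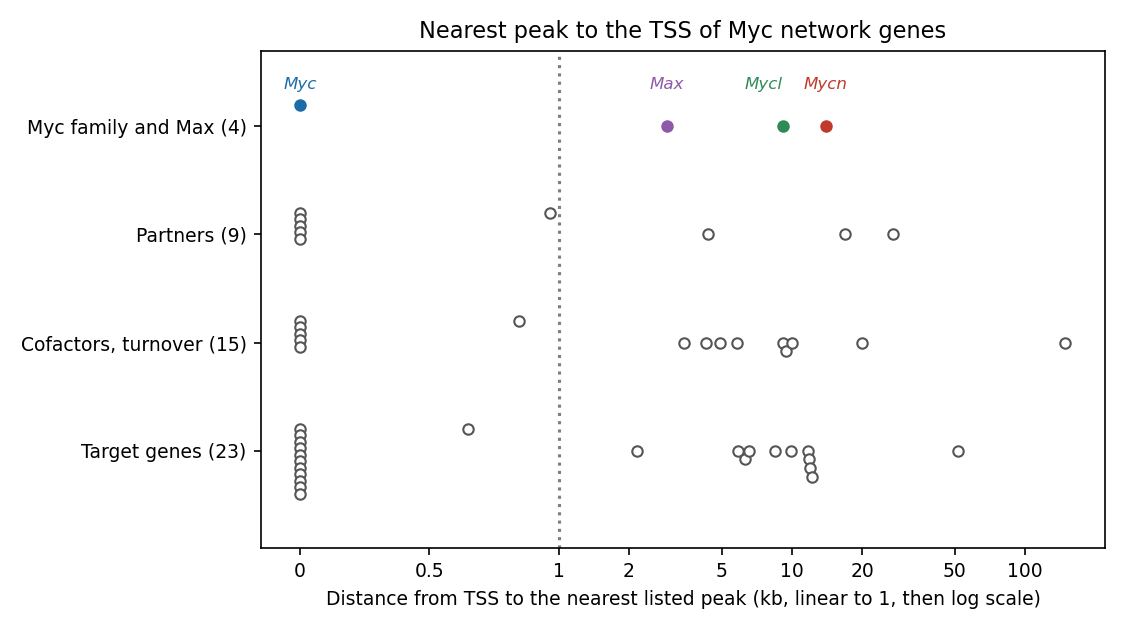
Distance from the TSS to the nearest listed peak (x axis, kb, linear to 1 and logarithmic beyond) for the 4 members (coloured) and the genes of 3 lists (open circles, stacked where they coincide). The dotted line is the promoter limit of 1 kb, and of the members Myc alone lies to its left.

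The plot of nearest peaks shows that genes at 0 kb occur in every list, as do genes at 4 kb and beyond. Marker genes of stem cells and of fibroblasts were read in the same way. Of 12 stem cell markers, 5 had a promoter peak (Pou5f1, Nanog, Zfp42, Tbx3 and Dppa5a), while Sox2, Klf4 and Esrrb, defining markers as well, were among the 7 that did not. Their median distance to the nearest peak was 1.30 kb with a median of 11.5 peaks per window. Of 10 fibroblast genes 2 had one (Thy1 and Pdgfra), and their medians were 68.9 kb and 1.5 peaks. Over all genes 28.5% had a promoter peak, and the medians were 9226.5 bp and 7 peaks. The promoter counts of both lists are small numbers beside that share and do not identify the cell type. Promoter peaks over a ZBTB21 region were found at 0 of the 12 and 0 of the 10, beside 2.92% of genes. A TSS inside a responsive loop was found for 2 stem cell markers and 1 fibroblast gene, beside 15.6% of genes. The part of feeder cells in the members' peaks was not tested.

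The surroundings of the genes were also compared out to 1 Mb. Within this reach Myc had 27 peaks, Mycn 34, Mycl 45 and Max 57, beside a median of 49 over all genes. The order of Myc and Max was the reverse of that within 10 kb. Upstream of Myc all 4 peaks were within 100 kb, and the next 900 kb held 0, whereas 23 lay downstream, 11 of them from 100 to 200 kb from the TSS. Of 20 steps of 100 kb around Myc, 13 held no peak.

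At Mycn 8 peaks were upstream and 26 downstream, with the fullest step, 8 peaks, again at 100 to 200 kb. Mycl had 7 upstream and 38 downstream, 12 of them in the step from 600 to 700 kb. Max had 15 and 42, and its fullest steps, from 400 to 500 kb and from 700 to 800 kb, held 7 each. In all 4 genes more peaks lay on the downstream side, where the direction is that of the gene's own transcription. How many of all genes show this was not counted, so it cannot be called a trait of these genes. In the narrower window of Mycl the sides were even, with 6 peaks each. Empty steps numbered 13 at Myc, 9 at Mycl, 8 at Mycn and 3 at Max.

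**Figure D5:**
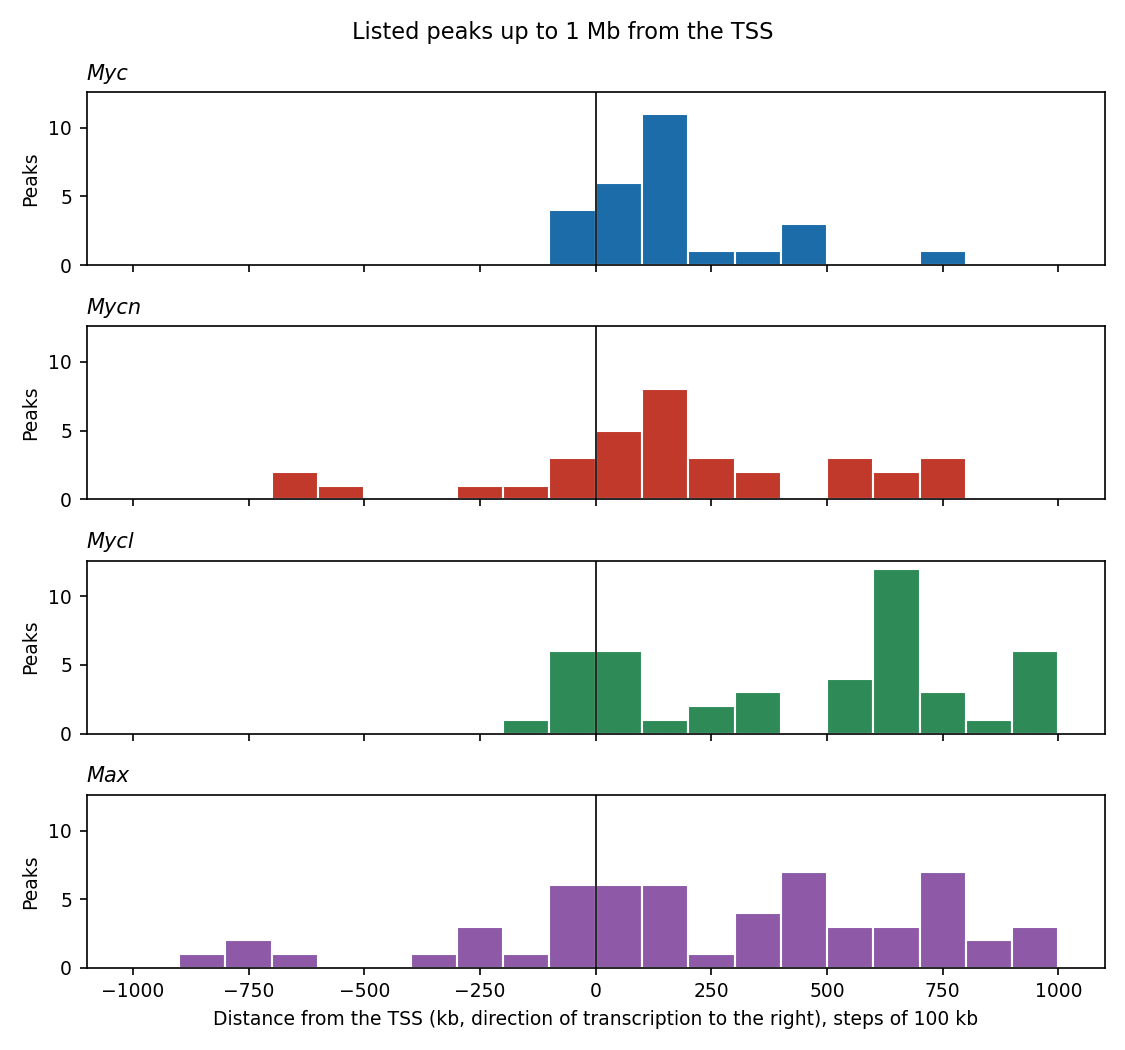
Number of listed peaks (y axis) in steps of 100 kb from 1000 kb upstream to 1000 kb downstream of the TSS (x axis, kb) for each member. Myc has 4 peaks upstream and 23 downstream, and its bar at 100 to 200 kb reaches 11.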

How the data were processed

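Untreated V6.5 mESCs (2 replicates) were assayed by ATAC-seq. The authors deposited 1 peak list for them, with mm10 positions and a score per peak. The labels' processing notes name cutadapt 2.6, Bowtie2 2.3.5.1 and MACS2 2.1.1. How the ATAC-seq peaks were called, how the replicates were combined and whether reads were shifted for Tn5 were not given in the sources used here. For ChIP-seq of the same study replicates were filtered by IDR at 0.05, and the lowest deposited score fits that value, so the score was read as a scaled IDR, a rank of replicate agreement. Depth per sample is unknown, and the list shows neither replicate spread nor regions under the threshold. Scores rank peaks within the list only.

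Positions were compared with curated RefSeq TSSs on GRCm38.p6 (the assembly of mm10) in Python 3.11.15, with a minimum overlap of 1 bp; figures were drawn with matplotlib 3.10.9. Interval counting was checked on simulated data. ZBTB21 regions and loops (25 kb anchors, spans from outer edge to outer edge) came from the authors' supplementary tables. Repeats are the lower-case bases of the reference. Members and gene lists were chosen with earlier results of these data known. Genes named were the members, all partners, the smaller of the groups with or without a promoter peak in the other lists, and neighbours with a TSS in a window. Peaks described as distal were the nearest, widest and highest in score, with the rest added for completeness. Alternatives were other flanks and TSS distances, predicted transcripts, peaks above the median score, merging within 500 bp, midpoints, windows without TSS peaks, ZBTB21 regions extended by 1 kb, and loop anchors.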

Additional observations from a re-analysis of the deposited data

How the results depend on the processing

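Of 36 alternative values over 10 results, 24 stayed within 1.5 times of the reported value or within the spread of the peaks, and 12 moved. Myc was the 1 member with a promoter peak under each TSS distance, with predicted transcripts and with peaks above the median score, while the share of all genes with one ran from 18.7% (peaks above the median score) to 33.2% (TSS within 2.5 kb). With a TSS distance of 500 bp, 1 promoter peak was left, since the edge of Myc peak 4 lies 609 bp away. With flanks of 50 kb the windows held 7 peaks at Myc, 5 at Mycn, 6 at Mycl and 7 at Max. With flanks of 250 kb they held 22 at Myc, 18 at Mycn and 22 at Max (16 at Mycl, within 1.5 times). With peaks above the median score they held 6, 5, 6 and 7. These changes follow from the smaller or larger area or the shorter list. Density stayed above that of 73.9% to 88.7% of genes with 50 kb and of 57.4% to 75.8% with 250 kb. The median width ran from 524 to 582 bp and the median score from 692 to 701. Counts of 0 for ZBTB21 overlap and loops held with ZBTB21 regions extended by 1 kb and with loop anchors alone. No paired analysis was possible because the list gives no value per replicate, and leaving out a replicate could not be done for the same reason. Depth is unknown, so that a region missing from the list may be below its threshold.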

Other observations

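Mycs, an intronless Myc-related gene on chromosome X that is no member of the set, had 1 promoter peak, whose edge lay 492 bp from its TSS. Its window of 202.4 kb held 2 peaks in all, fewer than each of the 4 members.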
